A study of Mus musculus with 6 samples.

Results

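Cytosolic ribosomal protein genes encode the protein components of the ribosome that translates nuclear mRNAs, with *Rpl* symbols for the large subunit and *Rps* symbols for the small subunit. The genes were taken by symbol, as *Rpl* or *Rps* followed by a digit together with *Rplp0*, *Rplp1*, *Rplp2* and *Rpsa*, leaving out the S6 kinases. This gave 81 of the 14546 genes in the PRO-seq table, 49 with large subunit and 32 with small subunit symbols. PRO-seq labels the RNA made by engaged RNA polymerases in isolated nuclei, and was done here on proliferating mouse muscle stem cells (MuSCs). The 3 Ctrl libraries (genotype Pax7CreERT/Suv4-20h1WT) and the 3 Kmt5b sKO libraries (Pax7CreERT/Suv4-20h1KO) share the *Pax7*-driven, tamoxifen-inducible Cre, and Suv4-20h1 is another name of *Kmt5b*, a histone H4 lysine methyltransferase. According to the study's methods the cells were isolated from adult mice after tamoxifen and expanded in culture; the number of mice behind each library was not given in the sources used here. The Cre restricts the deletion to *Pax7*-expressing cells and their progeny.

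Ribosomal protein genes are strongly transcribed in growing cells and are short, scattered over the genome, and expressed in near-equal amounts so that ribosomes can be built. In mammals most of their mRNAs start with a pyrimidine tract, the 5′ TOP, through which mTOR and LARP1 control translation, and their promoters often carry sites for factors of the ETS family and for YY1. Because proliferating cells need ribosomes, the family is both a measure of growth and a common source of reference genes for RT-qPCR.

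Each gene has 2 values per library. The TSS region is the first 400 nt of the listed isoform and is given here in RPM, reads scaled to a fixed total per library (headed TPM in the table, which for a fixed length is the same scale); the gene body runs from there to the transcript end and is given in TPM, which also divides by length. The ratio of both is the pausing index, high where polymerases are held near the start. Each region was scaled to its own total. Both scales are relative, so a change shared by all genes cannot appear, and in bulk libraries fewer cells of a type and less RNA per cell cannot be told apart. Of the 81 genes, 76 lay on autosomes, passed the minimum mean of 0.5 in both regions and were tested. Genes on X and Y were left out of the test, as the methods describe. This removed *Rpl10*, *Rpl36a*, *Rpl39* and *Rps4x*, 4 genes on X, and *Rpl3l*, the striated muscle paralog of *Rpl3*, failed the minimum, being listed at 0 in the TSS region of all 6 libraries. The symbols also take in *Rps19bp1*, which encodes a partner of RPS19 rather than a ribosomal protein, and the paralogs *Rpl7l1*, *Rpl22l1*, *Rpl36al* and *Rps27l*.

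The table's listed genes held 926904 to 3246052 TSS reads and 7425429 to 16249132 gene body reads per library. *Kmt5b* itself was measured at 30.6, 35.4 and 38.5 TPM in the gene body of Ctrl and 37.8, 35.0 and 42.6 TPM in Kmt5b sKO; these values cover the whole transcript, so they did not check the genotype labels. The myogenic markers were all present in both groups, with a summed gene body level of 2074 to 3305 TPM in Ctrl against 2970 to 4116 TPM in Kmt5b sKO. The summed level of 8 of 8 mature fibre markers was 387 to 691 TPM in Ctrl against 733 to 1246 TPM in Kmt5b sKO, without overlap. The 3 of 5 endothelial markers listed summed to 2.50 to 4.23 TPM and 4.38 to 5.05 TPM, also without overlap, though at a low level. The 6 of 8 fibro-adipogenic markers summed to 80.5 to 95.7 and 71.7 to 96.2 TPM, and the 3 of 6 blood markers to 219 to 423 and 332 to 340 TPM. In the TSS region only 1 of these 3 blood markers was above 0 in any library, at 69.7 to 178 RPM in Ctrl and 120 to 175 RPM in Kmt5b sKO. No listed marker was at 0 in every gene body, and the part of these differences in the results below was not tested. The study calls its libraries biological replicates, and a p-value here sets the difference between the groups against the spread between libraries of the same group.

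The listed starts of the ribosomal protein genes are shown first for 7 genes on which the results below turn: *Rpl10a*, which held the highest values, *Rpl19* and *Rps27l*, which had the smallest unadjusted p, *Rps7*, among the highest in pausing index, *Rpl4* and *Rpl26*, whose starts carry the pyrimidine word searched for, and *Rpl35*, which had almost no signal in its TSS region. Each sequence is 50 bases of GRCm38 read on the sense strand of the gene, 30 before the start and 20 from it. Capitals mark the words CTTTCC (part of a TOP-like tract), CCGGAAG (the ETS core, either strand) and GCCATCTT (YY1-like, either strand). The windows are chr17:28328441-28328490 for *Rpl10a*, chr11:98026680-98026729 for *Rpl19*, chr9:66946056-66946105 for *Rps27l*, chr9:64173345-64173394 for *Rpl4* and chr11:68901553-68901602 for *Rpl26*, all on the plus strand, and chr12:28635934-28635983 for *Rps7*, chr2:39005605-39005654 for the listed start of *Rpl35* and chr2:39005112-39005161 for its RefSeq start (GRCm38.p6), all on the minus strand.
Rpl10a: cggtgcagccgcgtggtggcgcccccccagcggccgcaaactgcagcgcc
Rpl19: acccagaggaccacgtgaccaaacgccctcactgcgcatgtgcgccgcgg
Rps27l: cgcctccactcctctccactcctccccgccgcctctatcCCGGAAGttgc
Rpl4: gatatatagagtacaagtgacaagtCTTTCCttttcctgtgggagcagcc
Rpl26: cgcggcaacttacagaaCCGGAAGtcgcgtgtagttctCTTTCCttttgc
Rps7: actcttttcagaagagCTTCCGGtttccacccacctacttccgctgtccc
Rpl35 (listed start): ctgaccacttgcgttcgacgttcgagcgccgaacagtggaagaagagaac
Rpl35 (RefSeq start): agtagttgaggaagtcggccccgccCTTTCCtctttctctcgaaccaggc

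Within 100 bases on either side of the listed start, CTTTCC on the sense strand was found in 22 of 81 genes (27.2%), against 1185 of all 14541 nuclear starts in the table (8.15%). The ETS word CCGGAAG was found on either strand in 27 genes (33.3%), against 14.2% of all starts, and 9 genes (11.1%) held both words, against 1.35%. GCCATCTT was found on either strand in 8 genes (9.88%), against 4.09%. The words can share their end letters, and no match says only that these letters are not in the window. The median Ctrl value in the TSS region was 313 RPM for the 20 tested genes with CTTTCC, 330 RPM for the 26 with CCGGAAG, 264 RPM for the 8 with GCCATCTT and 328 RPM for all 76, which include them. In the gene body these medians were 167, 140 and 160 TPM, next to 166 TPM for all. No difference between these groups was tested.

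In Ctrl, the ribosomal protein genes were among the most strongly transcribed genes of MuSCs in both regions. The median gene body level of the 76 genes was 166 TPM, against 15.9 TPM over the 12451 genes tested, and 75 of 76 lay above the 90th percentile. In the TSS region the median was 328 RPM against 22.3 RPM, with 71 of 76 above the 90th percentile. Together the 81 genes held 2.46% to 2.84% of the gene body TPM and 3.95% to 6.73% of the TSS values of a library, and 0.335% to 0.453% of its gene body reads. They are compact, with a median gene body of 2551 nt against 20328 nt for all listed genes, and 30 of them host at least 1 annotated snoRNA in the transcribed unit, 58 in all.

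**Figure D1:**
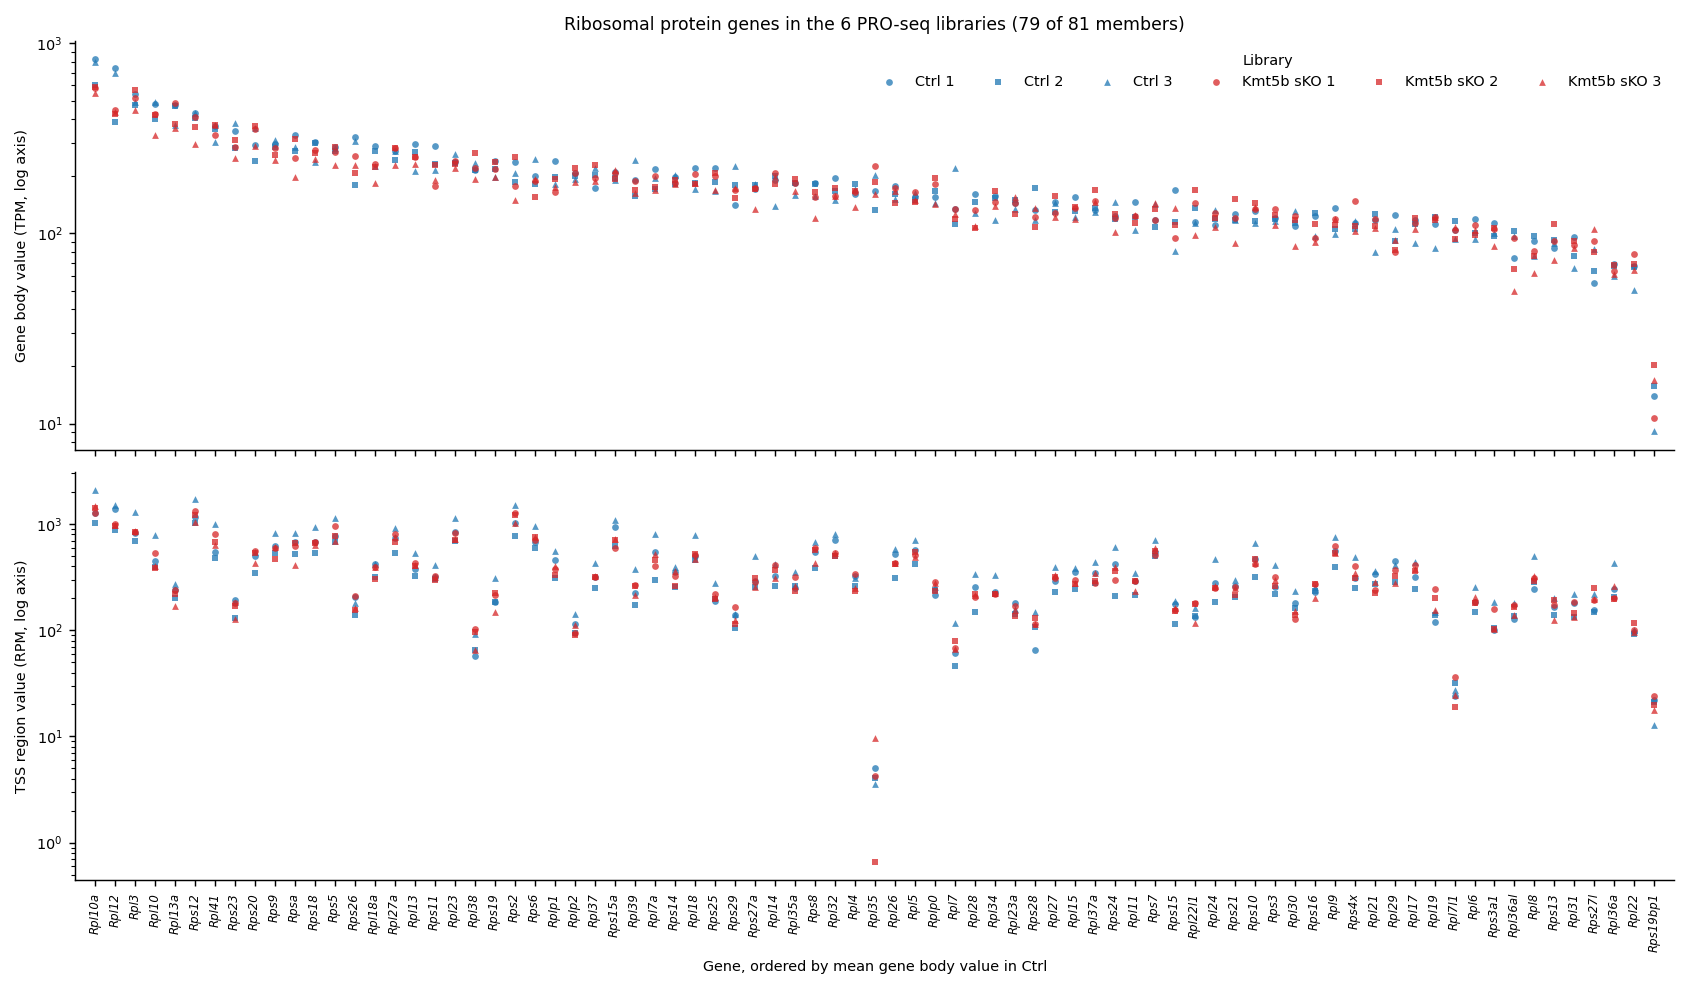
Gene body values in TPM (upper panel) and TSS region values in RPM (lower panel) on log axes for 79 of the 81 genes, ordered by mean gene body value in Ctrl; each symbol is 1 library, blue for Ctrl and red for Kmt5b sKO, and *Rpl3l* is among those not drawn. Most genes lie within a narrow band in the gene body, while *Rpl35*, *Rpl7l1* and *Rps19bp1* drop far below the others in the TSS region.

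*Rpl10a*, a large subunit protein, was the highest in both regions. Its gene body level was 823.5, 602.8 and 799.5 TPM in Ctrl against 579.5, 591.3 and 549.1 TPM in Kmt5b sKO. *Rpl12*, a large subunit protein next to the stalk, followed with 742, 387 and 699 TPM in Ctrl against 447, 424 and 437 TPM in Kmt5b sKO. Ctrl replicate 2 was thus lower than the other Ctrl libraries for both genes and, for *Rpl12*, lower than every Kmt5b sKO library. *Rpl3*, at the peptidyl transferase centre, was the third with 504 ± 33.7 TPM in Ctrl (SD, n = 3). At the other end stood *Rps19bp1* with 12.9 ± 3.41 TPM, then *Rpl22* with 61.5 ± 9.69 TPM and *Rps27l* with 66.9 ± 14.1 TPM.

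In the TSS region *Rpl10a* was measured at 1469 ± 552 RPM, *Rps12*, a small subunit protein whose gene hosts 3 annotated snoRNAs, at 1304 ± 376 RPM and *Rpl12* at 1258 ± 327 RPM (SD, n = 3). Among the Ctrl libraries, replicate 3 was the highest and replicate 2 the lowest for all 3 genes. *Rpl35* was the lowest with 5.08, 4.02 and 3.60 RPM in Ctrl against 4.26, 0.66 and 9.66 RPM in Kmt5b sKO, values that rest on 1 to 21 reads, while its gene body held 168, 133 and 204 TPM in Ctrl against 225, 187 and 161 TPM in Kmt5b sKO. A RefSeq promoter window was found for 62 of the 81 genes, and for 26 of them its start lay within 10 nt of the listed one. *Rpl35* was the single gene among the 62 whose RefSeq start, 493 nt downstream of the listed one, fell outside the 400 nt of the TSS region. Its TSS value and pausing index therefore cover sequence ahead of the RefSeq start.

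Across the 76 genes the TSS and gene body levels in Ctrl ranked alike only in part (Spearman rho 0.53, across genes that share libraries and are not independent). Body length ranked with neither the gene body level (rho -0.09) nor the pausing index (rho 0.06), and the exonic share of the body, 6.81% to 89.0% over all 81 genes, ranked weakly with the gene body level (rho 0.25). The 28 tested snoRNA hosts had a median of 198 TPM in the gene body and the 48 others 144 TPM; their ranges, 88.2 to 609 TPM and 12.9 to 742 TPM, overlapped widely. *Rpl13a*, known for its intronic snoRNAs and named after its values were seen, was an example of a strongly covered body with a modest start, at 438 ± 58.7 TPM and 238 ± 34.8 RPM in Ctrl (SD, n = 3). Another coding gene annotated on the same strand, *Gm45713*, overlaps *Rpl13a*, and reads of the overlap were not told apart.

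The median pausing index in Ctrl was 2.02 for the ribosomal protein genes and 1.49 for all genes tested. In 60 of 76 genes the index was above 1 in every library and in 9 it was below 1 in every library. Both regions were scaled separately, so an index of 1 is not a point of equal polymerase density. *Rps2*, a small subunit protein at the mRNA entry, had the highest index with 5.25 ± 1.79, followed by *Rpl9* with 5.17 ± 2.14 and *Rps7* with 4.74 ± 0.153 (SD, n = 3 Ctrl libraries). The tight values of *Rps7*, 4.70, 4.62 and 4.91, contrast with those of *Rpl9*, 4.16, 3.72 and 7.62, in which replicate 3 stood apart. Below 1 lay, besides *Rpl35* at 0.0260 ± 0.00728, the paralog *Rpl7l1* at 0.269 ± 0.0324 and *Rpl38* at 0.319 ± 0.0673. Loss of *Rpl38* disturbs the patterning of the axial skeleton in the mouse. For *Rpl7l1* the listed start and the RefSeq start were the same base.

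**Figure D2:**
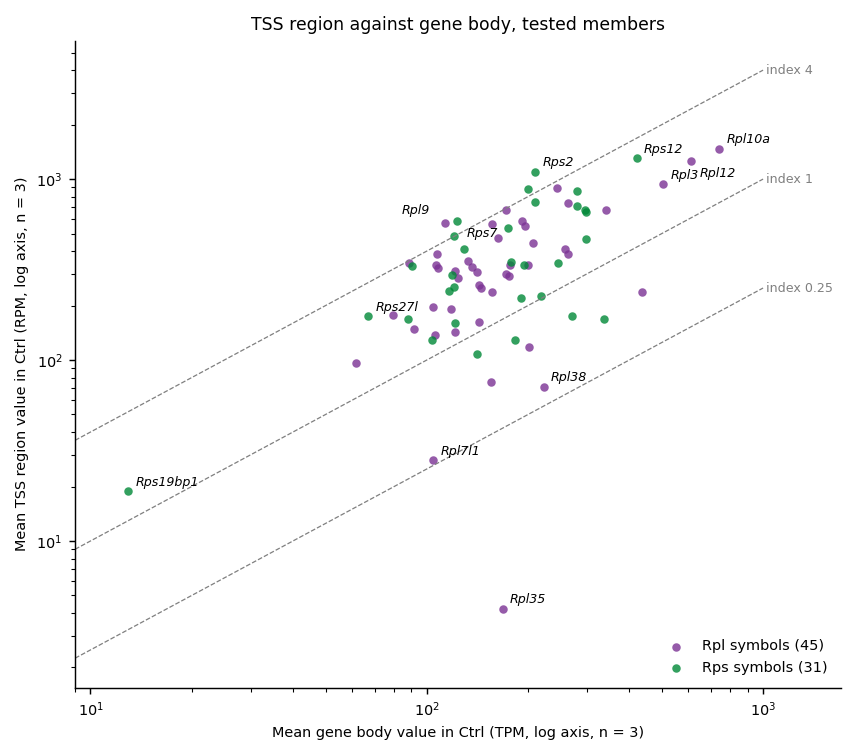
Mean TSS region value in RPM against mean gene body value in TPM in Ctrl (n = 3, log axes) for the 76 tested genes, with *Rpl* symbols in purple and *Rps* symbols in green; dashed lines mark pausing indices of 0.25, 1 and 4. Most genes lie between the lines for 1 and 4, and *Rpl35* lies far below all lines.

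The 45 tested *Rpl* genes had a Ctrl median of 156 TPM in the gene body, 323 RPM in the TSS region and 1.96 in pausing index, and the 31 *Rps* genes had 182 TPM, 336 RPM and 2.11. These medians were not tested against each other.

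The comparison of Kmt5b sKO with Ctrl asks whether transcription of the ribosome's protein genes differed after loss of the methyltransferase. No ribosomal protein gene passed the limma test at a Benjamini-Hochberg adjusted p under 0.1, neither among the 76 in the TSS region (1.66% of all 12451 genes were called), nor in the gene body (2.99% called), nor for the pausing index, for which no gene at all was called (0 of 11698). At an unadjusted p under 0.05 there was 1 gene in the TSS region, *Rpl19*, where 11.0% of all genes were found, 1 in the gene body, *Rps27l*, where 15.9% were found, and 0 for the pausing index, where 3.86% were found. The edgeR and DESeq2 tests on the recovered reads also called 0 of the 76 in both regions.

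The interval of each difference shows how large a change its values still allow. The 95% confidence interval of the log2 fold change lay within -1 and 1, that is within a 2-fold change either way, for 74 of 76 genes in either region and for 64 for the pausing index. It lay within -0.5 and 0.5 for 38 genes in the gene body but for 4 in the TSS region. *Rpl35* had the widest interval in the TSS region, -1.60 to 1.01, with its 1 to 21 reads. These intervals rest on 3 libraries per group and are not adjusted for the number of genes tested, as the calls are. They are therefore not a limit of detection.

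The log2 fold changes of the genes centred close to 0. In the TSS region 26 were higher and 50 lower in Kmt5b sKO, with a median of -0.07 against 0.08 over all genes tested. In the gene body 29 were higher and 47 lower, with a median of -0.04 against 0.02, and for the pausing index 30 were higher and 46 lower, with a median of -0.02 against 0.05. The split in the TSS region depended on the scaling: it was 15 higher and 61 lower after centring each library on its median, and 13 and 63 with TMM or DESeq2 factors. In the gene body it was 14 and 62 after quantile normalization. Leaving out Ctrl replicate 3 turned the TSS median to 0.11, with 53 genes higher and 23 lower, and the pausing index median to 0.16, with 62 higher and 14 lower, while leaving out Ctrl replicate 2 moved them to -0.22 and -0.17, so these small medians and splits rest on single Ctrl libraries. Leaving out Kmt5b sKO replicate 2 also turned the pausing index median, to 0.06, and in the gene body leaving out Kmt5b sKO replicate 3 gave 0.00 with 38 genes higher and 38 lower.

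**Figure D3:**
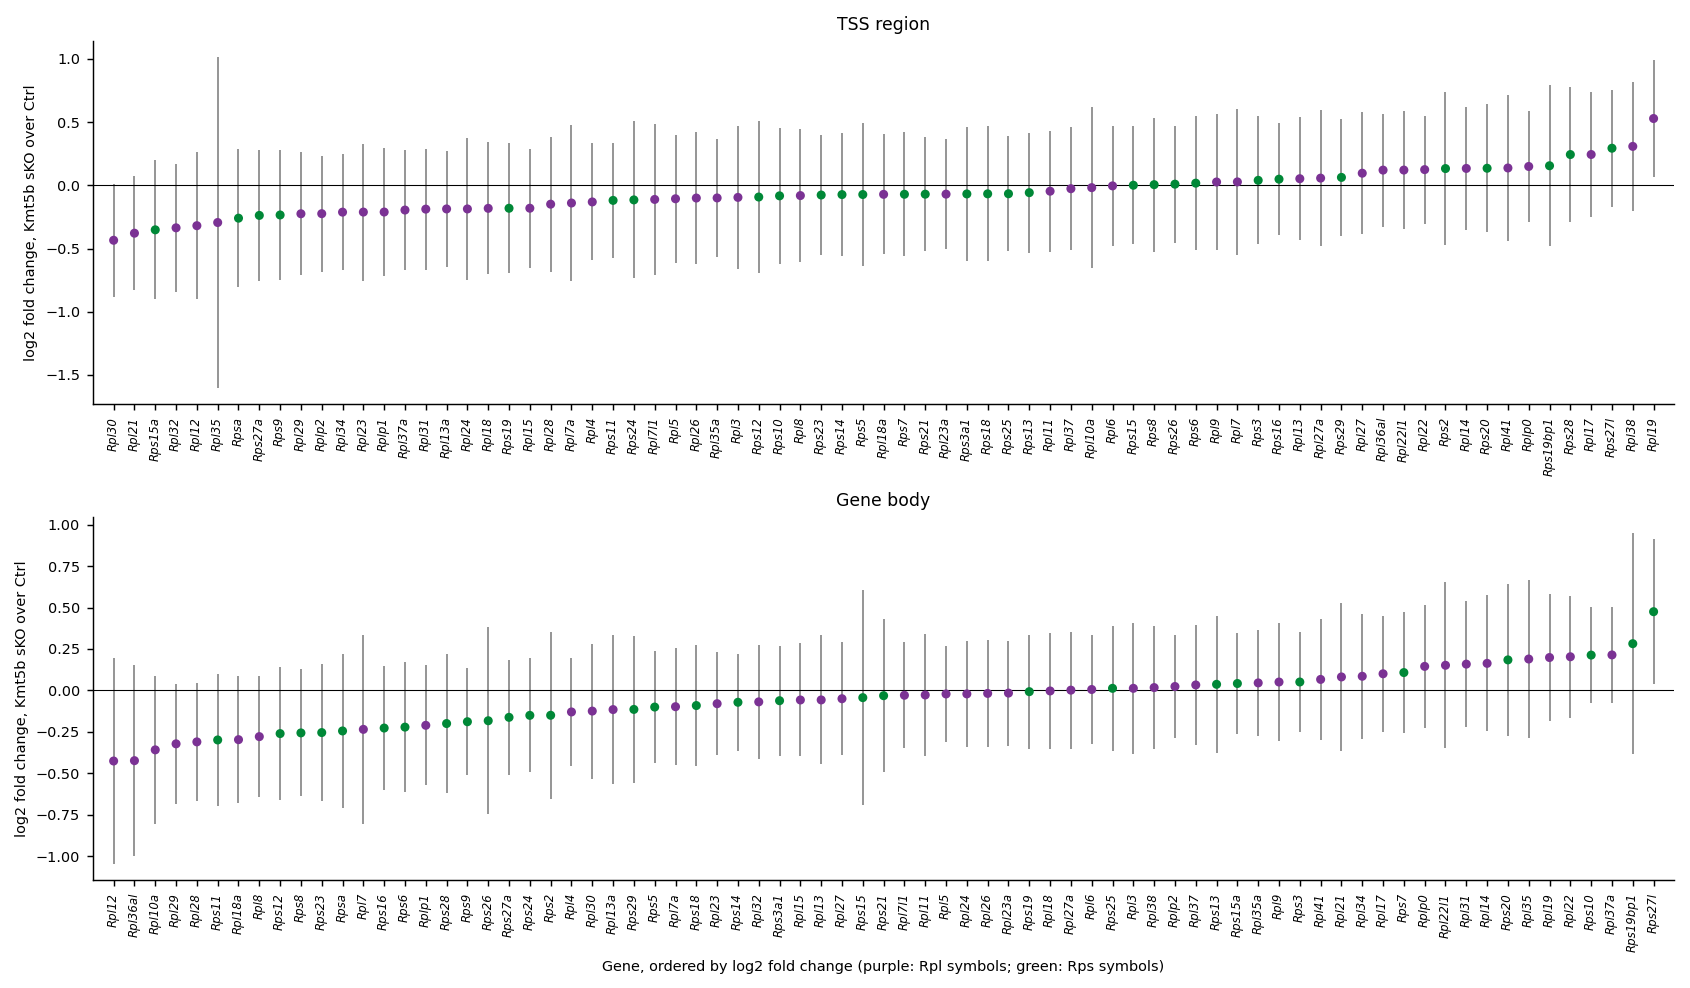
Log2 fold change of Kmt5b sKO over Ctrl (points) with its 95% confidence interval (bars) for 75 of the 76 tested genes in the TSS region (upper panel) and the gene body (lower panel), each ordered by fold change, with *Rpl* symbols in purple and *Rps* symbols in green. All intervals drawn include 0 except those of *Rpl19* in the TSS region and *Rps27l* in the gene body, and neither gene passed the adjusted threshold.

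*Rpl19*, a large subunit protein used as a reference gene, had the largest difference in the TSS region. It was measured at 120.1, 140.8 and 149.7 RPM in Ctrl against 246.5, 199.4 and 155.0 RPM in Kmt5b sKO. All Kmt5b sKO libraries lay above all Ctrl libraries, and it was the only one of the 76 genes of which this held, while 10.2% of all tested genes had such values. The log2 fold change was 0.53 (95% interval 0.07 to 0.99, adjusted p = 0.358). Its gene body, at 112.0, 122.3 and 83.6 TPM in Ctrl against 121.3, 117.4 and 121.8 TPM in Kmt5b sKO, overlapped between the groups.

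*Rpl30*, a large subunit protein, had the lowest fold change in the TSS region. It was measured at 181.3, 161.5 and 231.9 RPM in Ctrl against 128.5, 139.3 and 153.2 RPM in Kmt5b sKO. It was the only one of the 76 genes whose Kmt5b sKO libraries all lay below those of Ctrl, where 5.33% of all tested genes did so. The log2 fold change was -0.43 (95% interval -0.88 to 0.01, adjusted p = 0.473). *Rpl21* was likewise lower in value, with a log2 fold change of -0.38 (adjusted p = 0.576), and *Rpl38* and *Rps27l* were next to *Rpl19* at the upper end with 0.31 and 0.29 (adjusted p = 0.736 and 0.716).

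*Rps27l*, a paralog of *Rps27* known as a target of p53, had the largest difference in the gene body. It was measured at 54.7, 63.6 and 82.3 TPM in Ctrl against 91.6, 79.7 and 106.0 TPM in Kmt5b sKO, so that Kmt5b sKO replicate 2 fell just below Ctrl replicate 3. The log2 fold change was 0.48 (95% interval 0.04 to 0.91, adjusted p = 0.282). Without Ctrl replicate 3 it was 0.63 with an adjusted p of 0.0957, the only member and the only left-out library with which a call was made. In the TSS region it was measured at 156.9, 147.7 and 220.9 RPM in Ctrl against 194.1, 247.6 and 196.4 RPM in Kmt5b sKO, and the groups overlapped.

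Gene body values that did not overlap between the groups were found for 2 genes above Ctrl, *Rpl37a* and *Rps10*, where 12.0% of all tested genes had them, and for 2 genes below Ctrl, *Rpl10a* and *Rps9*, where 9.34% had them. *Rps10* and *Rps9* were named after their values were seen. *Rps10* is overlapped on its strand by another annotated coding gene, *RPS10-NUDT3*, and reads of the overlap were not told apart. The largest of these differences was that of *Rpl10a*, at a log2 fold change of -0.36 (adjusted p = 0.435), followed by *Rpl37a* at 0.21, *Rps10* at 0.21 and *Rps9* at -0.19 (adjusted p = 0.478, 0.480 and 0.592). *Rpl12* had the lowest fold change in the gene body, -0.43 (adjusted p = 0.515), followed by *Rpl36al*, -0.42 (adjusted p = 0.479), and *Rps19bp1* was second to *Rps27l* at the upper end, 0.28 (adjusted p = 0.713). For the pausing index *Rpl36al* was highest with 0.55 (unadjusted p = 0.0704), then *Rps28* with 0.45 and *Rpl10a* with 0.34, and *Rpl35*, *Rpl21* and *Rpl37a* were lowest with -0.67, -0.46 and -0.41.

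**Figure D4:**
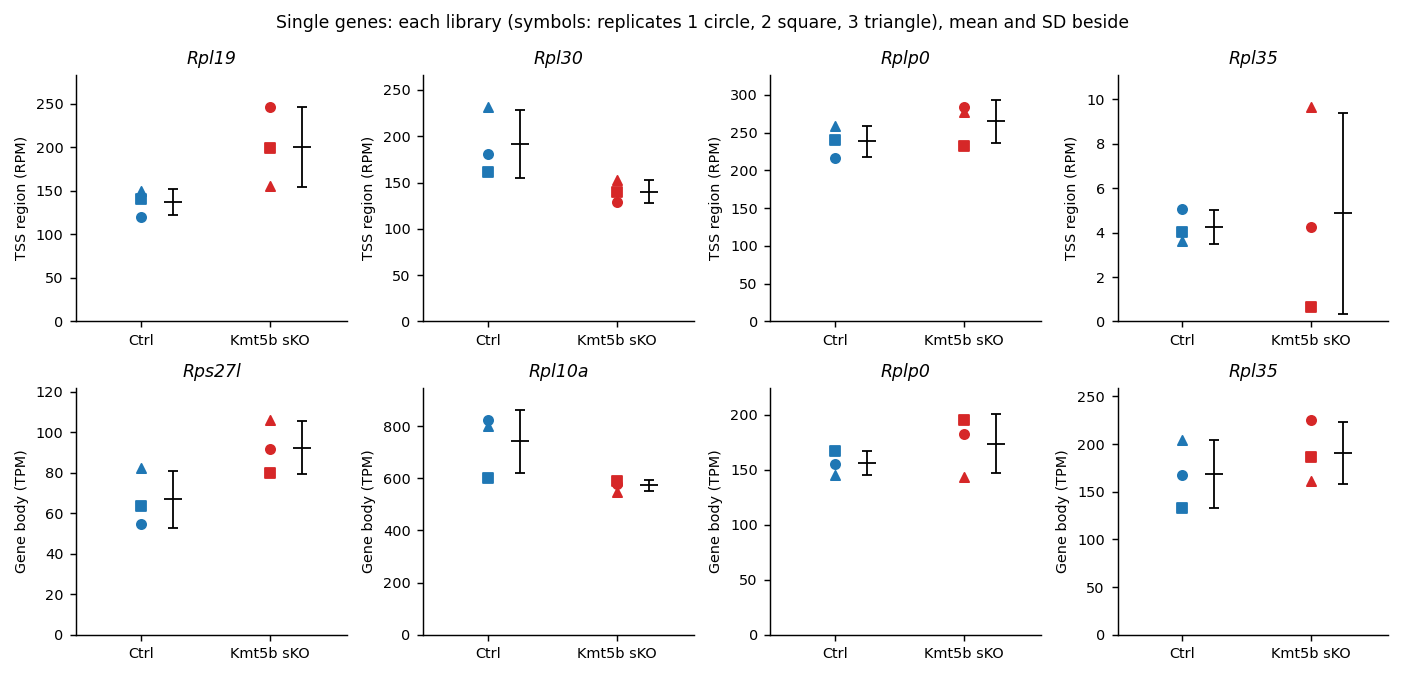
Values of single genes in each library (symbols, replicates 1 to 3 as circle, square and triangle) with the mean and SD of each group beside them, in RPM for the TSS region (upper row) and in TPM for the gene body (lower row); all axes start at 0. Only *Rpl19* and *Rpl30* in the TSS region and *Rpl10a* in the gene body show groups that do not overlap.

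The stalk proteins, which recruit translation factors to the large subunit, were not called. *Rplp0* (36b4), the reference gene of RT-qPCR in the study, was measured at 216.7, 240.2 and 258.4 RPM in Ctrl against 284.2, 232.4 and 277.8 RPM in Kmt5b sKO in the TSS region, and at 155.3, 167.0 and 145.2 TPM in Ctrl against 182.7, 195.0 and 143.1 TPM in Kmt5b sKO in the gene body. Its groups overlapped in both regions, with log2 fold changes of 0.15 and 0.15 (95% intervals -0.29 to 0.59 and -0.23 to 0.52). *Rplp1* had -0.21 in both regions, and *Rplp2* -0.22 in the TSS region, compared with 0.02 for the gene body. Against *Gapdh*, also used as a reference gene in the study, the gene body ratio of *Rplp0* was 0.281 ± 0.0329 in Ctrl against 0.319 ± 0.0818 in Kmt5b sKO (SD, n = 3). Of 23 common reference genes, 21 were tested and 0 were called in either region or for the pausing index. Their fold changes had a log2 median of -0.13 in the TSS region, compared with -0.05 for the gene body. This list is not a separate set, since it includes the ribosomal protein genes *Rplp0*, *Rpl4*, *Rpl13a*, *Rpl19*, *Rpl27*, *Rpl32*, *Rps13*, *Rps18* and *Rps29*.

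Genes with roles beyond the ribosome gave small values as well. *Rpl5* and *Rpl11*, which bind MDM2 when ribosome assembly fails, had log2 fold changes of -0.11 and -0.05 in the TSS region, with -0.02 and -0.03 for the gene body. *Rpl26*, which binds p53 mRNA, had -0.10 and -0.02, and *Rps6*, the substrate of S6 kinase, 0.02 and -0.22. *Rps14* and *Rps19*, whose loss of 1 copy causes human marrow disorders, had -0.07 and -0.18 in the TSS region, with -0.07 and -0.01 for the gene body, and *Rpsa*, also known as the laminin receptor, had -0.26 and -0.24. None of these 7 genes was called.

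Among the paralogs, *Rpl22l1* had 121 ± 12.7 TPM in the gene body in Ctrl and 138 ± 36.1 TPM in Kmt5b sKO (SD, n = 3), above its sister *Rpl22* with 61.5 ± 9.69 and 70.5 ± 6.62 TPM. *Rpl36al* had 74.0, 103.5 and 97.3 TPM in Ctrl against 94.6, 64.8 and 50.1 TPM in Kmt5b sKO, with overlapping groups and 40 to 131 reads behind each value. It is overlapped on its strand by another annotated coding gene, *Gm49383*. *Rpl3l* held 0 to 11 gene body reads per library and was listed at 0 in every TSS region. The genes on X, in a fit that kept X and Y, had log2 fold changes of -0.24 (*Rpl10*), 0.01 (*Rpl39*), 0.07 (*Rps4x*) and -0.35 (*Rpl36a*) in the TSS region, with -0.22, -0.17, 0.09 and -0.02 for the gene body, and none was called.

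In the TSS region the ribosomal protein genes moved together between libraries of the same group. Their median in replicates 1, 2 and 3 was 304.7, 247.1 and 413 RPM for Ctrl against 303.9, 283.3 and 281.7 RPM for Kmt5b sKO. Ctrl replicate 3 was the highest of all 6 libraries for 58 of 76 genes (76.3%) and Ctrl replicate 2 the lowest for 45 (59.2%). Over all tested genes the same libraries were the highest for 13.6% and the lowest for 14.9%, and over the 953 other genes with a mean TSS value of at least 100 RPM for 26.2% and 21.6%. In the gene body the medians were much closer, 164.8, 167.4 and 154.3 TPM in Ctrl against 165.5, 167.6 and 148.0 TPM in Kmt5b sKO.

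The pausing index carried the same order, with medians of 1.86, 1.53 and 2.68 in Ctrl against 2.03, 1.82 and 2.00 in Kmt5b sKO. The medians of all genes stayed between 1.47 and 1.61. Since each region is scaled to its own total, a shift of the index shared by all genes cannot appear in these medians. The 953 other genes with high TSS values also had their lowest median index in Ctrl replicate 2 (2.35) and their highest in Ctrl replicate 3 (2.81), which were the lowest library for 31.9% and the highest for 30.5% of them, against 56.6% and 68.4% of the ribosomal protein genes. The typical within-group SD of a ribosomal protein gene in the TSS region was 0.29 on the log2 scale and 0.17 once the family's own median was taken off each library; for the 953 other genes with high TSS values it was 0.27 and 0.26. Among large and small subunit genes, Ctrl replicate 3 was highest in the TSS region for 34 of 45 and 24 of 31 genes. The mitochondrial ribosomal protein genes, which serve another ribosome, had Ctrl replicate 3 as the highest library in the TSS region for 17 of 75 (22.7%), and their share of TSS values was 0.453% to 0.481% in the 6 libraries. Their median pausing index was highest in Ctrl replicate 3 too, at 1.81. That library and Kmt5b sKO replicate 2 were each the highest for 29.3% of them. These differences between gene groups were not tested. Ctrl replicate 3 was also highest for 15 of 24 translation factors and other 5′ TOP genes (62.5%) and for 22 of 45 ribosome biogenesis genes (48.9%). The ratio of all TSS reads to all gene body reads was likewise highest in Ctrl replicate 3 (0.228) and lowest in Ctrl replicate 2 (0.0785), with 0.112 to 0.155 in the other libraries. Its part in the pattern was not tested.

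**Figure D5:**
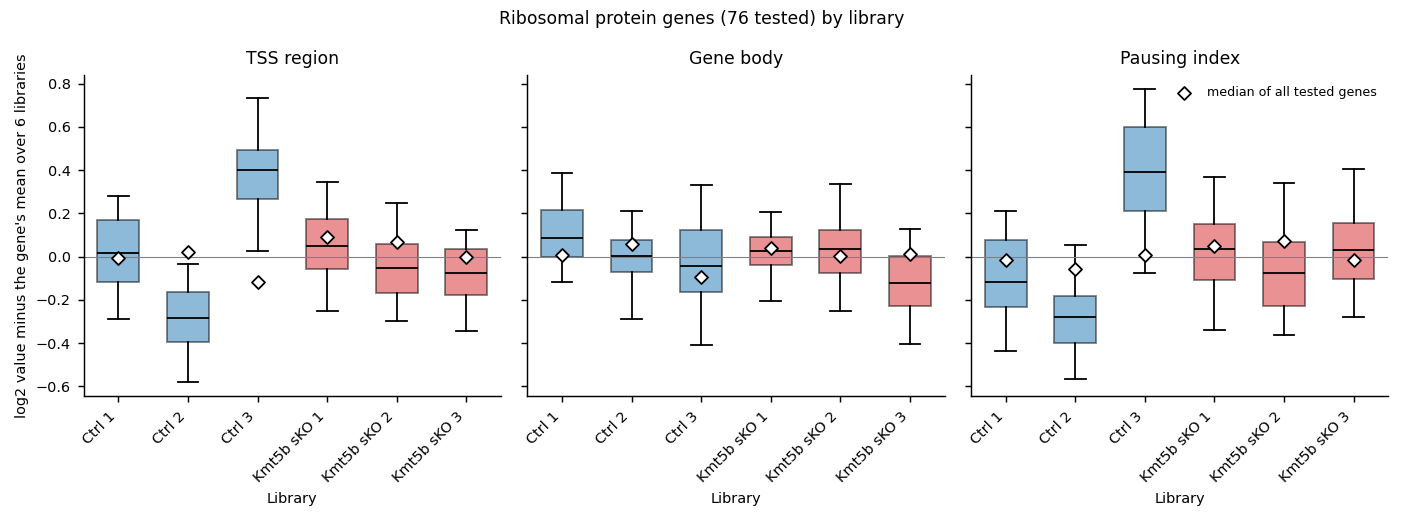
Deviation of each ribosomal protein gene from its mean over 6 libraries, on the log2 scale, for the TSS region, the gene body and the pausing index; boxes show the quartiles and whiskers the 5th to 95th percentile of 76 genes, and white diamonds the median of all tested genes. In the TSS region and for the pausing index the box of Ctrl replicate 3 is the highest and that of Ctrl replicate 2 the lowest, while the gene body boxes lie closer together.

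The other genes of the pathway were not called either. Of the ribosomal proteins outside the symbol rule, *Fau* and *Rack1* were not called, with log2 fold changes of -0.31 and -0.01 in the TSS region against -0.33 and 0.02 for the gene body. The 24 translation factors and other 5′ TOP genes had medians of -0.11 and 0.02 in the TSS region and gene body with 0 called, and the 45 tested ribosome biogenesis genes -0.06 and -0.08 with 0 called, 10 of them higher and 35 lower in the gene body. Over all tested genes 53.8% were higher in the gene body. The split of 10 and 35 was not tested, nor was it rerun under other scalings. The 75 mitochondrial ribosomal protein genes had medians of -0.04 and -0.07 with 0 called. Of 25 tested regulators of ribosomal protein synthesis 0 were called. *Mtor*, the kinase upstream of S6 kinase and LARP1, had the values 46.2, 35.6 and 25.8 RPM in Ctrl against 59.7, 66.7 and 59.3 RPM in Kmt5b sKO in its TSS region. These did not overlap (log2 fold change 0.82, adjusted p = 0.137), and 10.2% of all tested genes likewise had Kmt5b sKO above Ctrl without overlap there. In the gene body of *Mtor* the groups did overlap (0.22, adjusted p = 0.567). *Myc*, which drives ribosome production, had a log2 fold change of -0.59 in the TSS region (adjusted p = 0.42) and 0.00 in the gene body (adjusted p = 0.999). Both were named after their values were seen.

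Reads that fit several places were kept at 1 random position by the authors. In the annotation 58 of the 81 genes have at least 1 pseudogene named after them, up to 24 for a single gene and 283 in all. Whether these are processed copies was not checked, and pseudogenes under other names were not counted. The 54 tested genes with such a pseudogene had a median log2 fold change of -0.09 in the TSS region (-0.05 for the gene body). The 22 without one named in this way had -0.06 and -0.02. The exonic reads of these genes are therefore uncertain. Exons, the part that processed pseudogenes copy, cover a median of 24.1% of the gene body.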

How the data were processed

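The PRO-seq table holds 6 libraries of MuSCs, 3 per genotype. Trimming (Trimmomatic 0.39) and alignment (STAR 2.6.1d, GRCm38) were done by the authors, who retained 1 random position per multi-mapping read and removed duplicates with Picard 2.18.16, which can lower counts where many reads share a position. The authors scaled reads by depth and length; the deposited TSS values are headed TPM but, with the length fixed at 400 nt, are on the scale of RPM, the name used here, and the planned test was kept. The deposited gene body values are TPM, and both regions list 1 isoform per gene. Whole reads were recovered from the value steps (100% of the low values, up to 20 reads and for gene bodies under 2000 nt, came out whole within 0.1 reads) for edgeR 4.0.16 and DESeq2 1.42.0.

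Values were tested as log2(value + 0.5), which understates changes of low genes, with limma 3.58.1 (eBayes with a trend, R 4.3.3) on 12451 autosomal genes with means of at least 0.5 in both regions. The pausing index had no pseudocount. Calls used a Benjamini-Hochberg adjusted p under 0.1. The listed starts came with the deposited values, and the RefSeq starts from RefSeq promoter windows. Exons, snoRNAs and pseudogenes came from GENCODE M21, in which 74 of 81 listed transcripts had their start and end within 1 nt of the listed ones. The members and gene lists were chosen with earlier results of these data known. Named were the members called, the 3 highest and lowest by level and by fold change, those with set roles, paralogs and X genes; some named by this rule are not reported here. Steps were tested on simulated data.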

Additional observations from a re-analysis of the deposited data

How the results depend on the processing

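The number of ribosomal protein genes called was 0 in the TSS region and for the pausing index under every alternative run: other pseudocounts, no filter, X and Y kept, median centring, eBayes without a trend and each library left out, and, for the TSS region, quantile normalization, edgeR, DESeq2 and a stricter threshold. In the gene body it was 0 under the same alternatives, and 0 to 1 over the left-out libraries, the 1 being *Rps27l* without Ctrl replicate 3. Over the left-out libraries the median log2 fold change ran from -0.22 to 0.11 in the TSS region, from -0.07 to 0.00 in the gene body and from -0.17 to 0.16 for the pausing index. The gene body median moved to -0.14 under quantile normalization; the cause was not tested. With the replicate number as a term (replicate block), 0 genes were called and the medians stayed at -0.07, -0.04 and -0.02. Same-numbered libraries deviated from their group means with correlations of -0.33 to -0.03. The labels do not say whether same-numbered libraries were prepared together, and these correlations cannot settle it. Of 992 values of named genes under alternatives, 72 changed sign without a call, 919 kept theirs and 1 passed the threshold. Depth limits *Rpl35* (1 to 21 TSS reads) and *Rpl3l*; 4 tested genes had under 100 TSS reads in some library and 7 under 100 gene body reads. Over all genes the number called moved more: 207 in the TSS region, but 64 at an adjusted p under 0.05, 0 without a filter, without a trend or with the replicate block and 1 to 408 with a library left out; 372 in the gene body, but 748 with edgeR, 1295 with DESeq2, 1 at an adjusted p under 0.05, 0 with the replicate block and 0 to 836 with a library left out; and 0 for the pausing index, with 1 after a pseudocount of 0.5.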
